A study of Arabidopsis with 36 samples.

Results

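The comparison described here is that of hy5-215 with Col-0 in shoots at 21 °C. Its members were the 3 hy5-215 and the 3 Col-0 libraries labelled as shoot and 21 °C, which are 6 of the 36 libraries of the series. The series measured total RNA by RNA-seq in shoots and roots of Arabidopsis seedlings of 3 genotypes at 21 and 28 °C, with 3 libraries for each of 12 groups, to follow how HY5 and the nitrate transporter NRT1.1 act in the response to high ambient temperature. Col-0 is the wild-type accession, and hy5-215 is a mutant line in the Col-0 background that carries a point mutation at a splice site of HY5. Both groups were grown on 1/2 ms plates for 4 days and for 5 more days at 21 °C, without a heat treatment. The third genotype, labelled chl1.5, is a mutant line of NRT1.1. Its shoot libraries entered the filter on low values and the estimate of the spread, and all its libraries were set beside single transcripts. Each genotype was represented by 1 line. The labels give a pool of about 50 roots for each root replicate, while the number of shoots behind each shoot library is not given in the sources used here, so the p-values measure the spread between these libraries.

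HY5 (ELONGATED HYPOCOTYL 5) is a bZIP transcription factor of light signalling. In darkness the COP1-SPA ubiquitin ligase marks it for degradation, and in light it accumulates, binds promoters of genes for pigments and photoprotection, and restrains hypocotyl elongation. Loss-of-function seedlings have long hypocotyls, low anthocyanin and less chlorophyll, and HY5 is also known to act on nitrate and iron genes.

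The deposited values were RPKM, that is, the reads of a gene scaled to its length and to the total reads of its library. The Col-0 libraries held 79.7 to 84.7 M reads and the hy5-215 libraries 72.0 to 75.0 M reads. The test covered the 16817 genes that averaged 1 RPKM or more across the 18 shoot libraries. Replicates were close, with a correlation of log2 values of at least 0.997 in each pair. hy5-215 replicate 1 stood somewhat apart. The squared difference between replicates was 5.51 and 4.88 times that of read sampling (median over genes) in the pairs with this library, against 2.16 in the other hy5-215 pair and 1.69 to 2.76 in Col-0.

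The libraries labelled chl1.5 went against their label in shoots. NRT1.1 was at 12.97 to 13.79 RPKM in those at 21 °C and at 18.50 to 19.38 RPKM in those at 28 °C, against 0 to 0.0115 RPKM in the chl1.5 roots. In Col-0 shoots it was at a mean of 17.7 RPKM at 21 °C and 7.30 RPKM at 28 °C. With all chl1.5 libraries left out of the filter and the fit, an alternative added after seeing the data, the counts given below were 97 DEGs in place of 96 and 9631 genes at any fold change in place of 10134.

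HY5 itself was the first gene examined. Its level was 4.67, 4.99 and 4.77 RPKM in Col-0 and 5.96, 5.49 and 5.59 RPKM in hy5-215. All 3 mutant libraries lay above the wild type, by 0.20 on the log2 scale (SE 0.055, adjusted p = 0.0048, limma with Benjamini-Hochberg adjustment). The mutant thus still made the transcript in shoots, and since the allele changes splicing, the level per gene does not check the genotype. In shoots at 28 °C the difference was -0.55 and in roots at 21 °C it was -1.59. HYH, the closest homolog of HY5, was at 23.7, 22.5 and 23.6 RPKM in Col-0 and at 26.7, 23.6 and 23.6 RPKM in hy5-215, a difference of 0.08 that did not pass the test (adjusted p = 0.29).

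At an adjusted p under 0.05, 10134 of the 16817 genes (60.3%) differed between the genotypes, 4318 of them higher (25.7%) and 5816 lower (34.6%) in hy5-215. Most of these differences were small. Their median size was 0.22 on the log2 scale, and 93.8% of them were under 0.5. Differentially expressed genes (DEGs), which also needed an absolute log2 fold change above 1, numbered 96 (0.571%), with 71 higher (0.422%) and 25 lower (0.149%). In all 96 the libraries of the genotypes did not overlap, and the share of such genes among all genes tested is not given here. The number of DEGs depended on the processing. It was 192 with a pseudocount of 0.1 in place of 1, 226 with limma voom on the reads recovered from the RPKM, and 46 with a minimum mean of 5 RPKM.

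**Figure D1:**
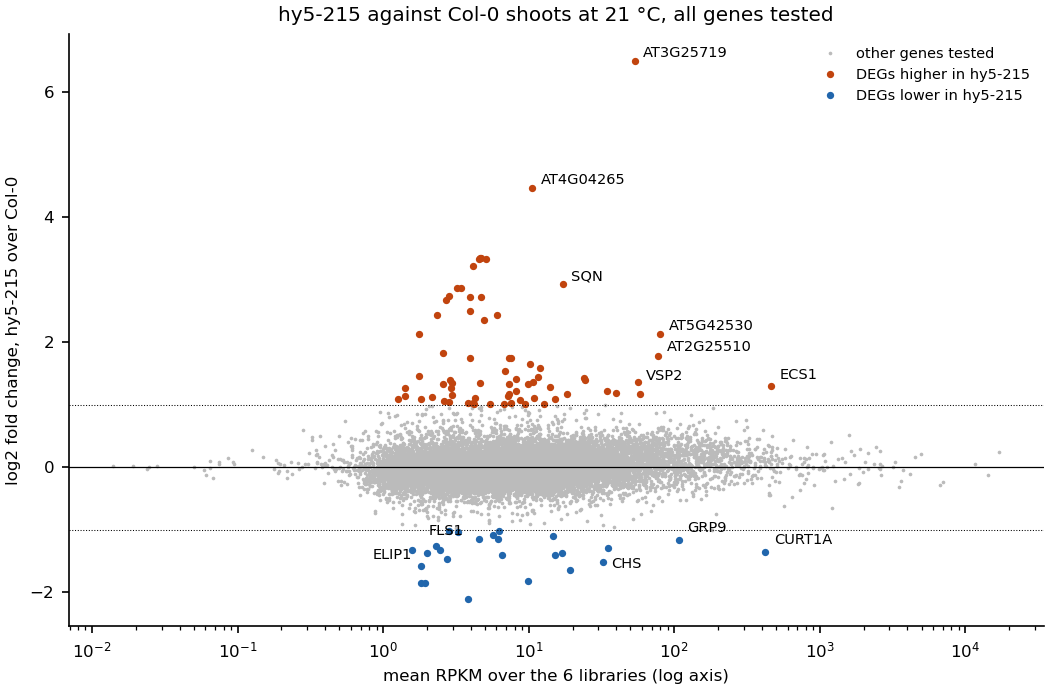
Log2 fold change of hy5-215 over Col-0 in shoots at 21 °C (vertical axis) against the mean RPKM over the 6 libraries (log axis), for the 16817 genes tested. Coloured points are the 71 DEGs higher and the 25 DEGs lower in hy5-215, dotted lines mark a log2 fold change of 1 in either direction, and nearly all other genes lie in a narrow band around 0.

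The largest differences were transcripts present in hy5-215 and close to absent in Col-0. AT3G25719 was at 0.249, 0.103 and 0.212 RPKM in Col-0 and at 105, 103 and 111 RPKM in hy5-215, a log2 fold change of 6.501 (SE 0.079, adjusted p = 1.53e-19). AT4G04265 had no read in the 3 Col-0 libraries and was at 20.60, 21.62 and 21.09 RPKM in hy5-215, at least 1265-fold higher when the Col-0 group is set at a floor of 3 reads. Neither gene has a name in the annotation used. In the shoot libraries labelled chl1.5 at 21 °C, AT3G25719 differed from Col-0 by 0.06 on the log2 scale and AT4G04265 by 0.00.

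By a fixed rule (under 0.1 RPKM in all 3 libraries of one genotype and at least 1 RPKM in all 3 of the other), 16 transcripts were found in hy5-215 shoots only and 1, AT5G23115, in Col-0 shoots only. AT5G23115 rested on 15 reads in Col-0. Of the 16, 7 lay on chromosome 1, 3 each on chromosomes 2, 3 and 4, and none on chromosome 5. The genes on each chromosome were not counted, so these numbers give no share. Only OFP9, a member of the OVATE family of transcriptional repressors, has a name, and it was at 0, 0 and 0.0285 RPKM in Col-0 and at 10.3, 8.57 and 9.12 RPKM in hy5-215. AT1G43815 and AT1G23915 had no reads in Col-0 and 8.78 to 9.48 and 7.18 to 8.93 RPKM in hy5-215. The rule did not use the roots and the 28 °C shoots. There the lowest of 9 hy5-215 libraries was above the highest of 9 Col-0 libraries for 12 of the 16. For these 12 it was also above the 12 libraries labelled chl1.5. The share of all genes that separate in this way is not given here. The others of the 16, AT1G34047, AT2G36255, AT3G28510 and AT1G34440, fell close to 0 in some hy5-215 libraries of other groups. AT4G04265, AT3G44070 and AT1G34047 overlap other annotated genes, and without strand their reads cannot be told apart.

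**Figure D2:**
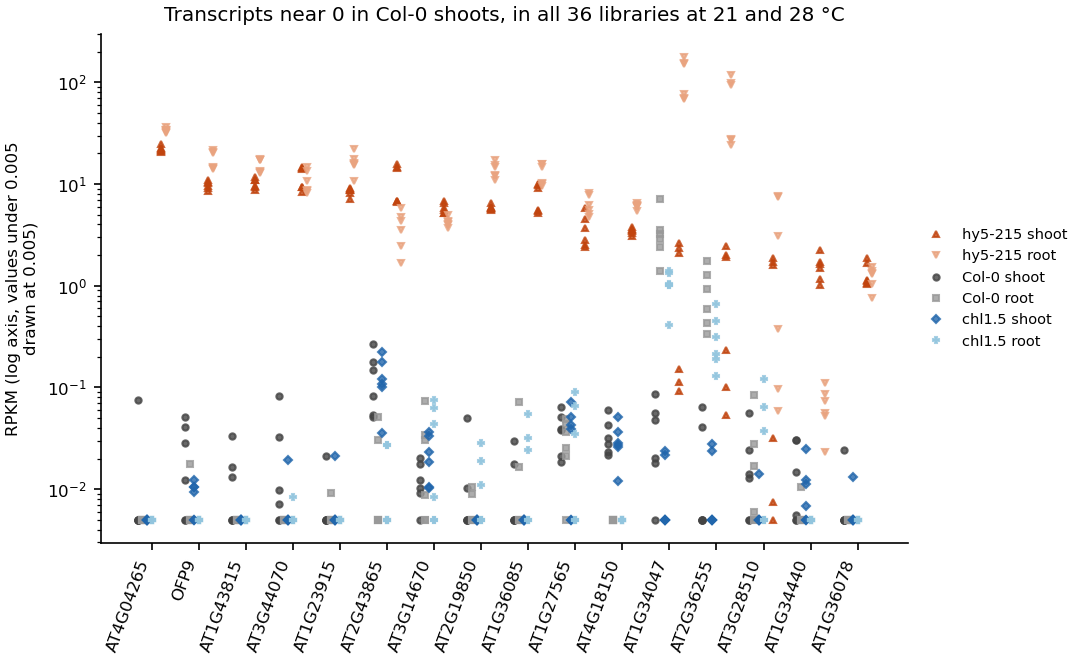
RPKM (log axis) of the 16 transcripts that were under 0.1 RPKM in Col-0 shoots and at least 1 RPKM in hy5-215 shoots at 21 °C, in all 36 libraries, 1 marker per library. For the first 11 transcripts and AT1G36078, the hy5-215 shoots and roots lie apart from all Col-0 and chl1.5 libraries.

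Among genes with at least 10 RPKM over the 6 libraries, the largest rises after these transcripts were in SQN, AT5G42530, AT2G25510, BGLU21 and AT3G24463. SQN (SQUINT), a cyclophilin 40 homolog that promotes the change from juvenile to adult leaves, was at 3.11, 3.14 and 3.39 RPKM in Col-0 and at 32.7, 30.1 and 30.2 RPKM in hy5-215. The level was 9.65 times higher in the mutant (log2 fold change 2.92, SE 0.038, adjusted p = 2.67e-19). SQN overlaps the span of AT2G15800, so part of its reads may belong to that gene. The same limit holds for all 17 DEGs that overlap another annotated gene. AT3G24463 is 1 of them, as are DEG14, CHS and CASP1, described below. AT5G42530 was at 28.8, 29.3 and 29.2 RPKM in Col-0 and at 137, 126 and 130 RPKM in hy5-215, 4.51 times higher. AT2G25510 was at 34.2 ± 1.35 RPKM (SD, n = 3) against 121 ± 3.74 RPKM, 3.52 times higher. Both are unnamed genes whose wild-type level was already substantial, so their change does not rest on low counts.

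The beta-glucosidase gene BGLU21 was at 4.16, 4.55 and 4.46 RPKM in Col-0 and at 16.3, 16.2 and 15.2 RPKM in hy5-215 (log2 fold change 1.65). OSM34, which encodes an osmotin-like protein, rose by 1.44, and QQS, an Arabidopsis-specific gene that affects starch and protein content, by 1.43. In the shoot libraries labelled chl1.5, compared with the same Col-0 libraries, QQS was at -2.21 on the log2 scale. DEG14, a protease of the Deg family, varied most among these genes within the mutant, with 43.7, 35.3 and 29.2 RPKM in hy5-215 against 12.8, 12.9 and 13.1 RPKM in Col-0 (log2 fold change 1.39, SE 0.093). The lowest mutant library was still above the highest wild-type one, as the choice of these genes required.

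Further risen DEGs with known roles were chosen after their values were seen. PCC1 (PATHOGEN AND CIRCADIAN CONTROLLED 1) was at 0.549, 0.579 and 0.360 RPKM in Col-0 and at 7.29, 7.15 and 7.80 RPKM in hy5-215, a log2 fold change of 2.49. IPS2, a non-coding RNA induced by phosphate starvation that sequesters miR399, rose by 2.35, from a mean of 0.930 to 8.85 RPKM. AED1, an apoplastic protease of systemic immunity, rose by 1.402, as did SWEET15, a sucrose transporter of ageing leaves, by 1.405. COR15A, a cold-induced protein that protects chloroplast membranes, was at 24.2, 24.1 and 23.4 RPKM in Col-0 and at 56.3, 57.7 and 54.0 RPKM in hy5-215 (log2 fold change 1.19). The most abundant risen DEG was ECS1, at 245, 260 and 298 RPKM in Col-0 and 724, 607 and 655 RPKM in hy5-215 (log2 fold change 1.31). In each of these genes, as in all risen DEGs, the mutant libraries lay above all wild-type libraries.

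Of the 25 fallen DEGs, 8 had a mean of at least 10 RPKM. The most abundant was CURT1A, which bends thylakoid membranes at the grana margins. It was at 607, 623 and 591 RPKM in Col-0 and at 242, 234 and 236 RPKM in hy5-215, 2.56 times lower (log2 fold change -1.35, SE 0.028, adjusted p = 1.25e-16). GRP9, a glycine-rich protein, was at 147, 146 and 154 RPKM against 65.7, 68.3 and 64.2 RPKM (log2 fold change -1.16). PRX71, a cell wall peroxidase, was at 20.4, 19.6 and 20.6 RPKM against 8.59, 9.17 and 8.98 RPKM (log2 fold change -1.10). In all 3 genes the spread within genotypes was a few percent. The mutant libraries were below every wild-type library, which their choice required. The unnamed genes AT1G52100 (log2 fold change -1.65), AT1G57770 (-1.36) and AT2G33850 (-1.29) fell by a similar factor. AT1G13609 fell by 1.41 with the widest spread, at 19.08, 21.27 and 26.52 RPKM in Col-0 and 9.86, 6.34 and 7.27 RPKM in hy5-215. MBP1, a myrosinase-binding protein just under 10 RPKM, fell by 1.82, from a mean of 15.9 to 3.77 RPKM.

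**Figure D3:**
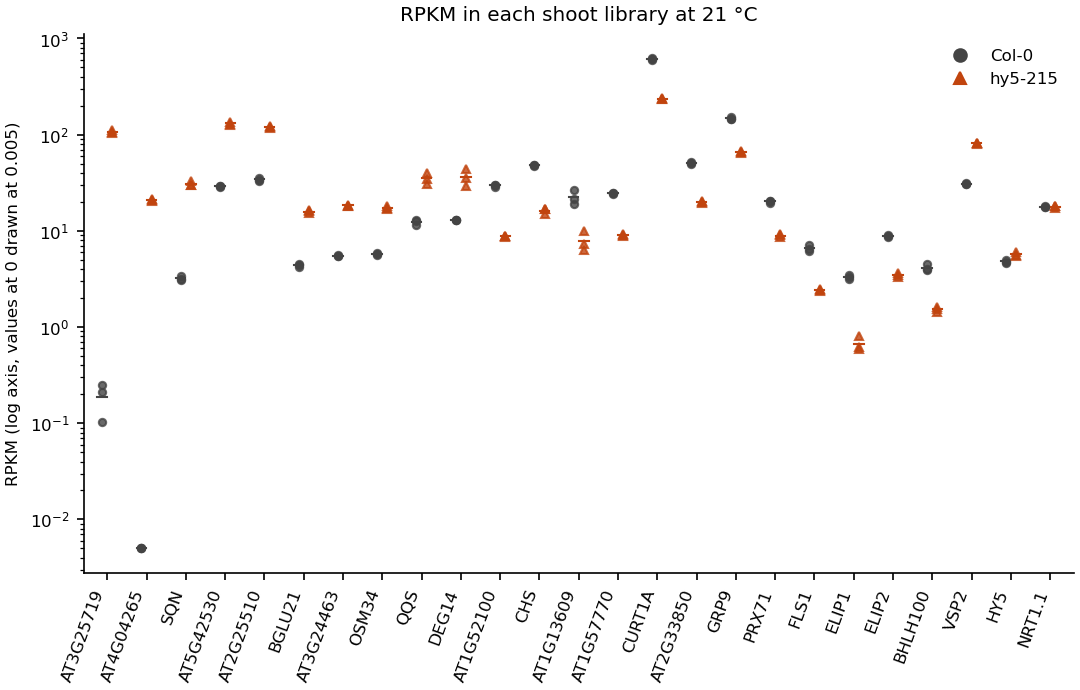
RPKM (log axis) of the 18 genes with the largest changes at 10 RPKM or more, of the list members FLS1, ELIP1, ELIP2, BHLH100 and VSP2, and of HY5 and NRT1.1, in each Col-0 (circles) and hy5-215 (triangles) shoot library at 21 °C. Lines are means, and AT4G04265 was at 0 in Col-0. The genotypes overlap in NRT1.1 only.

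Gene groups were then described, 24 in all with 305 genes tested. Their members were counted at any fold change, against 25.7% higher and 34.6% lower among all genes tested, with a median log2 fold change of -0.03 over all genes. Flavonoid synthesis, the best known output of HY5, held 2 DEGs among 15 genes tested of 24. CHS (TT4), chalcone synthase, which opens the pathway, was at 48.55, 48.04 and 47.47 RPKM in Col-0 and at 15.01, 16.73 and 16.99 RPKM in hy5-215. It was 2.96 times lower in the mutant (log2 fold change -1.51, SE 0.047, adjusted p = 9.60e-14). FLS1, flavonol synthase, was at 6.21, 6.47 and 7.18 RPKM in Col-0 and at 2.41, 2.49 and 2.37 RPKM in hy5-215 (log2 fold change -1.15). In both genes the change was well beyond the replicate spread.

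The other flavonoid genes moved less. Of the 15, 8 were lower, 2 were higher and 5 did not pass the test, with a median of -0.17. The higher ones became 1 without Col-0 replicate 2 or 3 or hy5-215 replicate 2 or 3. The anthocyanin enzymes DFR (-0.49) and LDOX (-0.43) fell. CHI, chalcone isomerase, which acts directly after CHS, was at 13.4, 13.3 and 12.9 RPKM in Col-0 and at 12.3, 13.2 and 13.1 RPKM in hy5-215, with overlapping groups (log2 fold change -0.04, adjusted p = 0.52). F3H, the next enzyme, fell by only 0.17. MYBL2, a repressor of anthocyanin synthesis and the most abundant member, rose by 0.13. MYB12, the activator of CHS and FLS1, was too low to be tested, at 0.206, 0.209 and 0.176 RPKM in Col-0 and 0.0339, 0.0168 and 0.0204 RPKM in hy5-215, without overlap.

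Carotenoid and photoprotection genes were lower in 11 of 14 cases and higher in 2, or 1 without Col-0 replicate 3 or hy5-215 replicate 2, with a median of -0.23. The early light-inducible proteins, which bind pigments under excess light, held both DEGs. ELIP1 was at 3.16, 3.49 and 3.32 RPKM in Col-0 and at 0.626, 0.596 and 0.802 RPKM in hy5-215 (log2 fold change -1.37), and ELIP2 at 8.90, 9.10 and 8.61 RPKM against 3.51, 3.61 and 3.34 RPKM (-1.14). PSBS, the sensor protein of non-photochemical quenching, fell by 0.23, and PSY, the entry enzyme of carotenoid synthesis, by 0.31.

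Chlorophyll synthesis genes were lower in 15 of 20 cases and higher in 1, with a median of -0.26 and no DEG. The higher one was lost without Col-0 replicate 1 or hy5-215 replicate 1. CHLH, a subunit of Mg chelatase, was at 532, 524 and 511 RPKM in Col-0 and at 370, 395 and 383 RPKM in hy5-215 (log2 fold change -0.45). PORB, protochlorophyllide oxidoreductase, fell by 0.35, CRD1 fell by 0.22 and CHLI1 fell by 0.18. The genes of the photosystems, light harvesting and Rubisco showed no common direction, with 10 higher, 11 lower and 15 not passing among 36 and a median of -0.01. With median-of-ratios scaling, 7 were lower. RBCS1A, a small subunit of Rubisco, rose by 0.24, while LHCB1.4, a light-harvesting protein, fell by 0.64. The call of LHCB1.3 (-0.12, adjusted p = 0.045) was lost without hy5-215 replicate 1 (-0.05, adjusted p = 0.29) and without each of the Col-0 libraries (adjusted p of 0.067 to 0.14). It was at 12550 RPKM in hy5-215 replicate 1 and 14467 and 14350 in the others, against 14743 to 15255 in Col-0. LHCB1 copies are near-identical, so reads may be split between them.

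Light signalling components were mostly lower. Of 12 photoreceptors and UV-B repressors, 11 fell and none rose, with a median of -0.38. With median-of-ratios scaling, 10 fell and 1 rose. PHOT1, a blue light receptor of phototropism, was at 56.6, 56.4 and 55.7 RPKM in Col-0 and at 41.9, 42.0 and 40.9 RPKM in hy5-215 (log2 fold change -0.43). PHYA, the far-red receptor, fell by 0.62, and the UVR8 repressors RUP1 and RUP2 by 0.48 and 0.54. PHOT2 fell by 0.25, and the cryptochromes CRY1 and CRY2 fell by 0.20 each. Among HY5 and its regulators, 6 of 8 fell, all of them parts of the degradation machinery: COP1 (-0.32), SPA1 (-0.35), SPA2 (-0.35), SPA3 (-0.28), SPA4 (-0.22) and DET1 (-0.28). The call of DET1 was lost without Col-0 replicate 2 or 3 or hy5-215 replicate 2 or 3. Of 9 B-box factors tested, 2 were higher, 2 lower and 5 did not pass. The lower calls, BBX21 and BBX25, were both lost without Col-0 replicate 2 or hy5-215 replicate 2, and 1 was lost without Col-0 replicate 3. BBX31 rose by 0.57 and BBX24, the most abundant, was at -0.04 (adjusted p = 0.50).

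**Figure D4:**
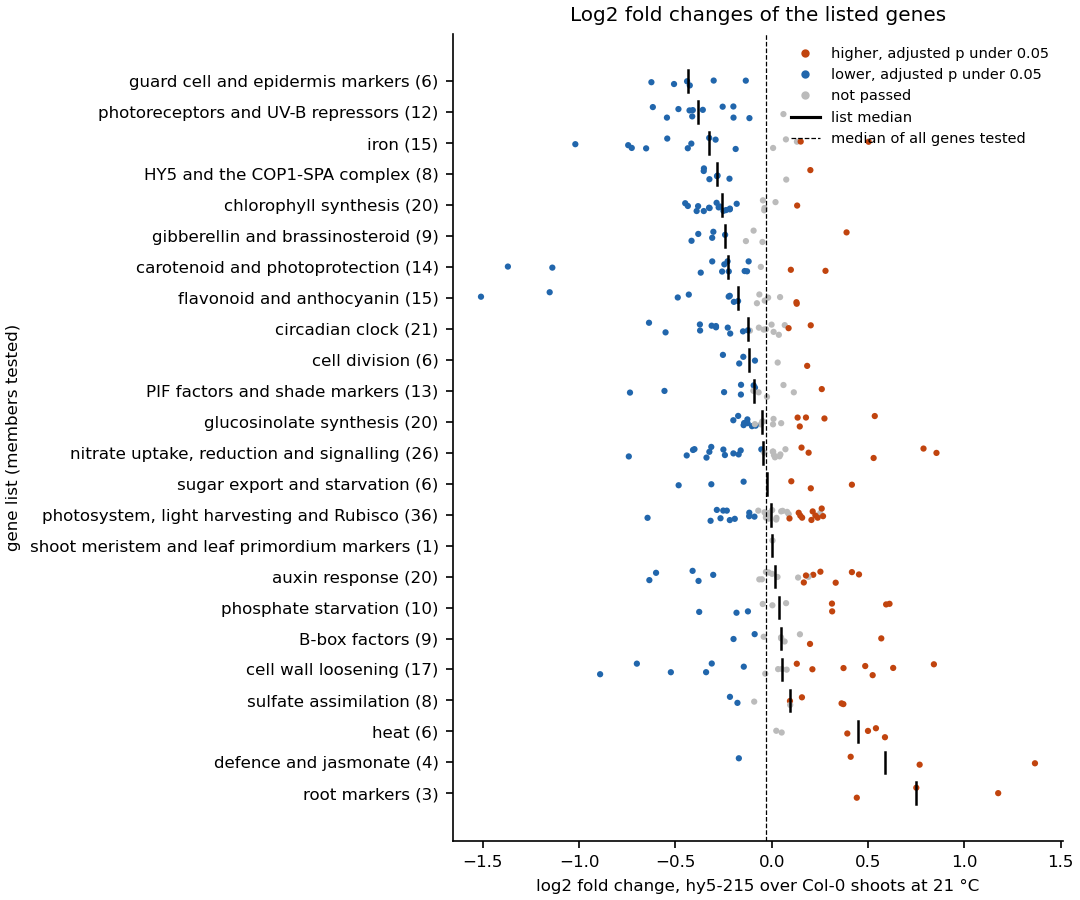
Log2 fold change of hy5-215 over Col-0 in shoots at 21 °C for each tested member of the 24 gene lists (1 point per gene, number tested in brackets), ordered by list median (black bar). The lists of photoreceptors, chlorophyll synthesis and carotenoids lie mostly below 0, and the lists for nitrate, auxin and cell wall loosening hold points on both sides.

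Growth genes went both ways. PIF factors and shade markers were lower in 7 of 13 cases and higher in 1, among them PIF4 and PIF5, bHLH factors that promote elongation (-0.16 each). The lower ones became 5 to 6 without any 1 library. With median-of-ratios scaling, 5 were lower and 2 higher. HFR1, an inhibitor of PIFs, fell by 0.74 and YUC8, an auxin synthesis enzyme, by 0.56. Auxin response genes were higher in 7 of 20 cases and lower in 5. The higher ones ranged from 5 to 8 without 1 library and were 9 with median-of-ratios scaling. SAUR24, one of a set of near-identical small growth genes, rose by 0.45, whereas IAA29 fell by 0.63 and the auxin-conjugating GH3.5 by 0.60. Cell wall loosening genes were higher in 7 and lower in 6 of 17. XTH24, a xyloglucan-modifying enzyme, was at 91.2, 94.7 and 92.4 RPKM in Col-0 and at 170, 167 and 165 RPKM in hy5-215 (log2 fold change 0.84), while XTH15 fell by 0.89 and the expansin EXPA1 by 0.34. Gibberellin and brassinosteroid genes were lower in 5 of 9 cases and higher in 1. CPD, a brassinosteroid synthesis enzyme, fell by 0.31. Clock genes were lower in 11 of 21 cases and higher in 2. The higher ones became 0 without Col-0 replicate 3, 1 without Col-0 replicate 1 or hy5-215 replicate 2 or 3, and 4 with median-of-ratios scaling. LHY, a morning factor, fell by 0.64 and CCA1 by 0.15.

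NRT1.1 (AT1G12110), the dual-affinity nitrate transporter at the centre of the study, did not differ detectably. It was at 17.94, 17.55 and 17.73 RPKM in Col-0 and at 17.10, 18.18 and 18.28 RPKM in hy5-215, with overlapping groups. The log2 fold change was 0.01 (adjusted p = 0.85), with a 95% interval of -0.06 to 0.08. Other nitrate genes did change, 13 of 26 lower and 5 higher. The nitrate reductase gene NIA1 was at 246, 243 and 237 RPKM in Col-0 and at 141, 148 and 144 RPKM in hy5-215 (log2 fold change -0.74). NIA2 fell by 0.44, NIR1, nitrite reductase, by 0.24, and GLU1, glutamate synthase, by 0.32. NRT1.5, which loads nitrate into the xylem, rose from 17.71, 17.77 and 17.61 RPKM to 31.08, 31.80 and 31.03 RPKM (log2 fold change 0.79). GLN2, plastid glutamine synthetase, was at 0.01 (adjusted p = 0.73).

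Iron genes were lower in 10 of 15 cases and higher in 2 (4 with median-of-ratios scaling), with a median of -0.32. The subgroup Ib bHLH factors of the iron deficiency response all fell, led by the DEG BHLH100, at 4.49, 4.03 and 3.94 RPKM in Col-0 and 1.45, 1.63 and 1.54 RPKM in hy5-215 (log2 fold change -1.02), with BHLH38 (-0.74), BHLH101 (-0.65) and BHLH39 (-0.54). The fold change of BHLH100 fell short of the limit for a DEG without Col-0 replicate 1 (-0.97) and without hy5-215 replicate 1 (-0.99). Of the ferritins, FER1 was at -0.44 and FER4 at 0.50, while the value of FER3, also tested, is not given here. Phosphate starvation genes were higher in 4 of 10 cases and lower in 3, among the higher ones PHT1;1, a phosphate transporter (0.59), and PAP17, an acid phosphatase (0.61). SQD1 and SQD2, which make sulfolipid, fell by 0.12 and 0.18.

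Sulfate assimilation genes were higher in 4 of 8 cases and lower in 2. Glucosinolate synthesis genes were higher in 5 and lower in 8 of 20, with a median of -0.05, but 4 were lower with median-of-ratios scaling. CYP83A1, the most abundant, rose by 0.15. Sugar export and starvation genes were even, with 3 higher and 3 lower of 6, among them SUC2, the phloem sucrose carrier, at -0.48. In the list of defence and jasmonate genes, 3 of 4 tested rose. VSP2, a vegetative storage protein induced by jasmonate, was at 31.3, 30.7 and 30.8 RPKM in Col-0 and at 79.5, 82.8 and 82.0 RPKM in hy5-215 (log2 fold change 1.37, SE 0.025). VSP1 rose by 0.77 and PR5 by 0.41, whereas LOX2, which starts jasmonate synthesis, fell by 0.17. PR2, a salicylate-induced glucanase, was too low to be tested, at 0.113, 0.147 and 0.120 RPKM against 2.08, 2.03 and 2.19 RPKM. Of 6 heat genes tested, 4 rose and none fell, all at low levels, with HSP18.2, a small heat shock protein, at 2.62, 3.03 and 2.90 RPKM against 4.23, 4.08 and 3.85 RPKM. Cell division genes were lower in 4 of 6 cases, or 3 without any 1 library, with KNOLLE, a syntaxin of cytokinesis, at -0.17.

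The 10 root markers summed to 13.8 to 14.2 RPKM in Col-0 and to 24.3 to 26.2 RPKM in hy5-215, and 3 of 3 tested rose. CASP1, which builds the Casparian strip of the endodermis, was at 3.93, 4.04 and 4.29 RPKM in Col-0 and at 9.88, 10.5 and 11.1 RPKM in hy5-215 (log2 fold change 1.18), against 147 RPKM in Col-0 roots. CASP2 rose by 0.75 and the iron transporter IRT1 by 0.44. MYB36, the endodermal regulator, was at 0.601, 0.595 and 0.766 RPKM against 1.56, 1.62 and 1.59 RPKM. The root hair markers stayed low in both genotypes, with EXPA7 at 0.377 to 0.474 RPKM in Col-0 and 0.332 to 0.431 RPKM in hy5-215, PRP3 at 1.34 to 1.54 and 1.37 to 1.62 RPKM, and COBL9 at 0.240 to 0.275 and 0.257 to 0.368 RPKM. None of the 10 was at 0. In shoots at 28 °C, 0 of the 3 tested markers were higher and 1 was lower in hy5-215, with a median of -0.002. CASP1 was at 0.01 there (adjusted p = 0.81).

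Root-expressed genes were common among the DEGs in both directions. Of the 71 risen DEGs, 22 (30.99%) had at least 5 times the level in Col-0 roots that they had in Col-0 shoots. CASP1, BGLU21 and the peroxidases RCI3 and PRX72 were among them, while 5.70% of all genes tested were of this kind. The Col-0 shoot level enters both this ratio and the fold change, so a low level there favours both in risen genes. This property was looked at after the values were seen. Of the 25 fallen DEGs, 6 were root-enriched, CHS, FLS1 and ELIP1 among them, also a larger share than among all genes tested. Over the 958 root-enriched genes, 416 rose and 180 fell, with a median of 0.10. In shoots at 28 °C, where none of the tested root markers was higher, the median of the root-enriched genes was 0.12. Whether a different share of root or hypocotyl tissue took part in these changes was not tested, and in bulk samples more cells of a type and more RNA per cell cannot be told apart.

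The 6 guard cell and epidermis markers all fell (5 without Col-0 replicate 1, where MYB60 did not pass), with a summed level of 47.7 to 47.9 RPKM in Col-0 and 34.9 to 36.1 RPKM in hy5-215. ATML1, which specifies the epidermis, fell by 0.44, SPCH, which starts the stomatal lineage, by 0.51, and GL2, a trichome regulator, by 0.62. Of the 5 markers of meristem and leaf primordia, AS1 alone was tested, at 0.00 (adjusted p = 0.90), while WUS had no reads in the mutant and at most 0.0188 RPKM in Col-0. The part of these markers in the other results was not tested. The abundance of RBCS1A and the LHCB1 genes and the low root hair markers matched the shoot label.

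HY5 lies on chromosome 5. Of the 410 genes tested within 1 Mb of it, 4 were DEGs (0.976%), against 0.571% of all genes. They were CHS, FLS1, AED1 and SWEET15. DEGs lay on all 5 chromosomes, with 26, 13, 22, 14 and 21 on chromosomes 1 to 5, without a count of the genes tested on each.

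The genotype comparison was repeated in separate libraries of shoots at 28 °C and of roots at 21 °C. In shoots at 28 °C, 268 genes were DEGs (1.59%), and 44 genes were DEGs at both temperatures, 45.8% of the 21 °C list and 16.4% of the 28 °C list, 43 of them with the same sign. Of the 71 risen DEGs, 62 were also higher at 28 °C (25.8% of all genes), 2 were lower and 7 did not pass, and their median went from 1.36 to 0.81. Of the 25 fallen DEGs, 19 were also lower (30.4% of all genes), 2 were higher and 4 did not pass, with medians of -1.35 and -0.97. The change of fold between temperatures itself passed the test for 80 of the 96 DEGs, against 50.3% of all genes. The DEGs were chosen for a large fold in the same 21 °C libraries. That choice favours a smaller fold at 28 °C and a higher share passing, so neither is a result about the DEGs. SQN had a larger fold at 28 °C (4.13) and AT5G42530 a smaller one (0.80). PRX71 changed direction, from -1.10 to 1.16.

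The light and nutrient groups differed between the temperatures as well. CHS was at -0.21 and FLS1 at -0.12 at 28 °C, and the change of fold passed the test for both (limma, adjusted p = 8.61e-11 and 2.07e-10). The levels of both genes at 28 °C are not given here, and folds on log2(RPKM + 1) are understated where levels are low. NIA1 was at -0.74 at 21 °C and at 0.18 at 28 °C, LHY at -0.64 and 0.28, and BHLH100 at -1.02 and 0.46, and in all 3 the difference passed the test. Nitrate genes were higher in 20 of 26 cases at 28 °C, against 5 at 21 °C (25.8% of all genes were higher at 28 °C). The SAUR24 rise of 0.45 stood against -1.12 at 28 °C. Glucosinolate genes were higher in 18 of 20 cases at 28 °C against 5 at 21 °C. The photosystem genes, without a common direction at 21 °C, were lower in 29 of 36 cases at 28 °C, where 30.4% of all genes were lower.

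In roots at 21 °C, 541 genes were DEGs (3.05%). Of the 96 shoot DEGs, 72 were tested there and 45 were DEGs in both organs, 62.5% of those 72 and 8.32% of the root list, 42 of them with the same sign. The fallen genes had a median of -1.98 in roots over the 17 tested, with 12 also lower (18.9% of all genes tested in roots), 3 higher and 2 not passing. CHS was at -6.19 and FLS1 at -5.25 in roots. The risen genes had a median of 1.44 over the 55 tested, with 43 also higher in roots (24.7% of all genes tested there), 1 lower and 11 not passing. The difference between the organs itself passed the test for 59 of 72 DEGs, against 51.3% of all genes tested in both. That share, too, is favoured by the choice of the DEGs from the same shoot libraries. Some responses were opposed. AT1G13609 rose by 2.84 in roots, VSP2 fell by 1.06, NIA1 rose by 1.73 and BHLH38 by 2.15, while each had the other sign in shoots. BGLU21 was at -0.03 in roots and CASP1 at 0.13, where both are expressed at high levels.

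**Figure D5:**
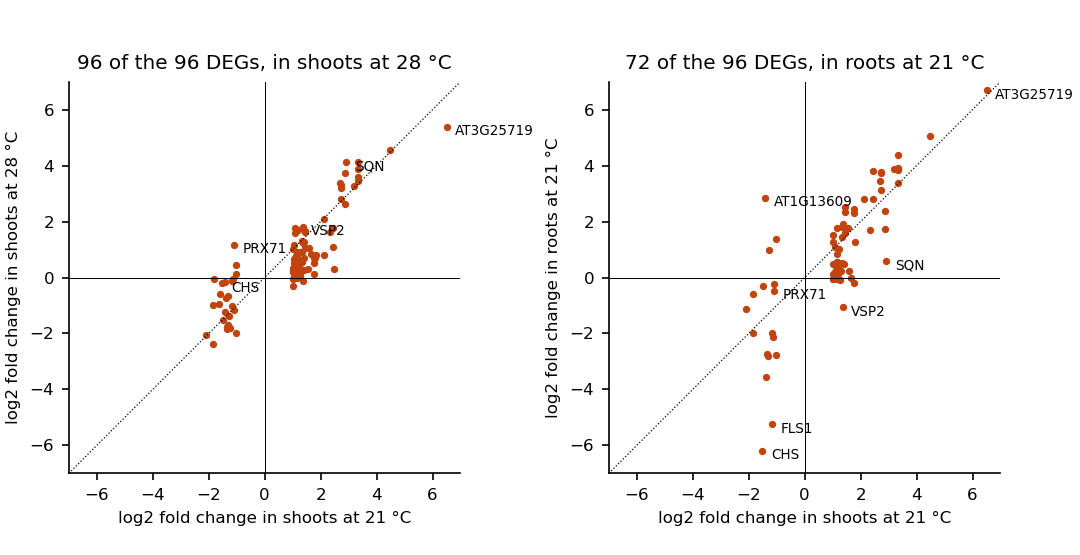
Log2 fold change of hy5-215 over Col-0 for the shoot DEGs at 21 °C (horizontal axis) against the same contrast in shoots at 28 °C (left, 96 genes) and in roots at 21 °C (right, 72 genes tested there). The dotted line marks equal values. Most points keep their sign, PRX71 changes sign at 28 °C, and CHS and FLS1 lie far below the line in roots.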

How the data were processed

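RPKM values of 36 libraries were deposited by the authors, who aligned reads with STAR 2.7.0a to TAIR10 and used edgeR 3.36.0. The counting tool and its strand setting are not given in the sources used here. Whole reads were recovered from the RPKM with gene spans of TAIR10.1 (at least 99.995% of values whole within 0.01), for depth, floors and the limma voom alternative only. Floors cover counting error only. For genes averaging 1 RPKM or more, limma 3.58.1 (R 4.3.3) was run on log2(RPKM + 1) of the 18 shoot libraries, with 6 group means, a trended eBayes prior and Benjamini-Hochberg adjustment over all genes. Fold changes therefore understate the change of low genes. The 28 °C contrast came from this fit. The contrast within roots came from a fit of the same kind on the 18 root libraries, over 17742 genes. The difference between shoots and roots came from a fit over 36 libraries and 15646 genes. The code was tested on simulated data.

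Named genes were HY5, up to 10 genes per direction with the largest change among DEGs at 10 RPKM or more whose groups did not overlap, genes near 0 in one genotype, and, of each list, the DEGs and up to 4 most abundant members. Further members, in lists and beyond, were chosen after their values were seen. The members and lists were chosen with earlier results of these data known. Names came from RefSeq, except AED1, which was set by hand. Of the 354 listed genes, 352 had a value, and 8 are given by identifier only. Same-numbered replicates deviated with correlations of -0.44, 0.10 and -0.15, and unlike-numbered ones with -0.46 to 0.47. These values gave no sign that the numbers pair the libraries. With 3 libraries per group they cannot exclude a shared batch. Alternatives were other pseudocounts, filters, scalings, fits with a replicate block or without a trend, a fit of the compared groups only, limma voom, leaving out each library and, added after seeing the data, leaving out the libraries labelled chl1.5.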

Additional observations from a re-analysis of the deposited data

Results flagged for a closer look

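The test of the difference between temperatures passed for 8453 genes, and that between organs for 8025 genes. Both are differences of the hy5-215 effect on the log2 scale, 28 °C minus 21 °C in shoots and shoots minus roots at 21 °C. Apart from HY5 and NRT1.1, the genes below were chosen by their values in the same 21 °C shoot libraries.

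Between temperatures, HY5 differed by -0.75 and NRT1.1 by 0.31. Among the risen genes, the effect was smaller at 28 °C for AT3G25719 (-1.11), AT5G42530 (-1.34), AT2G25510 (-1.10), BGLU21 (-0.81), AT3G24463 (-0.53) and DEG14 (-0.68), and larger for SQN (1.21) and OSM34 (0.22). Among the fallen genes, the effect was less negative or reversed for AT1G52100 (0.69), CHS (1.295), AT1G13609 (1.24), GRP9 (0.13) and PRX71 (2.26), and more negative for AT1G57770 (-0.48) and CURT1A (-0.41).

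Between organs, HY5 differed by 1.79. Shoots had the higher value for SQN (2.33), AT2G25510 (0.53), BGLU21 (1.68), AT3G24463 (1.34), DEG14 (0.92), CHS (4.68), CURT1A (1.38) and GRP9 (0.83). Roots had the higher value for AT4G04265 (-0.61), OSM34 (-1.08), QQS (-0.92), AT1G13609 (-4.25), AT2G33850 (-2.28) and PRX71 (-0.61).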

How the results depend on the processing

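The 96 DEGs became 192 with a pseudocount of 0.1, 226 with limma voom and 46 with a minimum of 5 RPKM, which tests fewer genes. Leaving out each library gave 94 to 103 DEGs, and 83 of the 96 were called in all 6 such fits. The genes at any fold change numbered 9214 to 9717 without 1 library. Median-of-ratios scaling moved their split from 42.6% to 51.8% higher (5247 higher, 4886 lower) by shifting the median of all genes from -0.03 to 0.01. The differences between temperatures ranged from 7675 to 8736 genes, and those between organs from 7254 to 8053, without 1 library. The latter fell to 4828 with the 5 RPKM minimum. With the replicate block there were 96 DEGs and 9944 genes at any fold change, and the differences numbered 8171 and 7974. The replicate numbers gave no sign of pairing the libraries. With the chl1.5 libraries left out, the differences between temperatures numbered 7851 and those between organs 7764. Of 1944 values of 115 single genes under the alternatives, 1875 kept direction and side of the threshold, 54 no longer passed, 14 newly passed and 1 reversed: APR3, at -0.015 with quantile normalization. Of 816 list counts, 45 moved by more than 1.5 times, 9 of them under the 5 RPKM minimum, 8 with median-of-ratios scaling and 5 with quantile normalization.

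Depth was not limiting for genes above 1 RPKM, as 1 read on 1 kb is worth 0.0118 to 0.0139 RPKM. The small spread between 3 libraries a genotype lets differences of a few percent pass, and with 1 line per genotype and no stated growth batches, HY5 loss cannot be told apart from other differences between the lines.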
